A study of Homo sapiens with 12 samples.

Results

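A group of 7 cell adhesion genes was followed through 12 expression arrays of PANC-1 cells, an established human pancreatic ductal carcinoma line: VCAM1, ICAM1, ICAM2, ICAM3, ICAM5, ALCAM and MCAM. The members were taken by gene symbol, through the array's probe annotation or, failing that, the RefSeq accession of the feature. Of the 7 genes, 6 had 1 feature each among the 34487 features of the table, and ICAM2 had no named feature and was not analysed here. PANC-1 cells were grown alone or in a transwell co-culture with tumor-associated macrophages (TAMs) for 4 days, each under normoxia and under hypoxia, which gave 4 groups of 3 arrays: alone under normoxia (NPC), co-cultured under normoxia (NPM), alone under hypoxia (HPC) and co-cultured under hypoxia (HPM). The oxygen level of the hypoxia groups and the culture time of cells grown alone were not stated. The groups describe 1 carcinoma line, and the study's methods derive macrophages from the THP-1 monocyte line without naming the source for the array cultures. All 4 groups share PANC-1 cells, and they differ in the macrophages and in the oxygen. The medium of the array cultures was not stated.

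VCAM1 and the ICAMs are transmembrane proteins of the immunoglobulin superfamily that hold leukocytes through integrins: VCAM1 binds the integrin α4β1, and ICAM1 binds LFA-1 and Mac-1. On endothelium, inflammatory cytokines switch on VCAM1 and ICAM1 through NF-kB and interferon regulatory factors acting at their proximal promoters. ALCAM (CD166), a ligand of CD6, and MCAM (CD146) belong to the same superfamily and mediate contacts between cells of several tissues, tumor cells included.

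The promoter DNA is shown for the members whose groups differed by the test below (VCAM1 and ICAM5) and for ICAM1, whose NPM arrays all lay above its NPC arrays. Each sequence is the 250 bases before the RefSeq start of the gene in GRCh38.p14, all on the plus strand, at chr1:100719492-100719741 for VCAM1, chr19:10270870-10271119 for ICAM1 and chr19:10289702-10289951 for ICAM5. Capitals mark matches to NF-kB-type letters in VCAM1 and ICAM1 and to the core letters of a hypoxia response element in ICAM5.
VCAM1: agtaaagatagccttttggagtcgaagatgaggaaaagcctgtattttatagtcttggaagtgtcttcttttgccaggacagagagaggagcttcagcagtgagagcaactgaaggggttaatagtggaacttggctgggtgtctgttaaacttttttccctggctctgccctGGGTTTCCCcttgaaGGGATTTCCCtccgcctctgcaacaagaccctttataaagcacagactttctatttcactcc
ICAM1: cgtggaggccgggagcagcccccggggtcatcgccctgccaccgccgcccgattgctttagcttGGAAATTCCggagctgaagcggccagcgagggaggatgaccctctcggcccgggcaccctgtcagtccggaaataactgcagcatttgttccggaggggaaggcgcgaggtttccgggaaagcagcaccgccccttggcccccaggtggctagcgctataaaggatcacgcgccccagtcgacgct
ICAM5: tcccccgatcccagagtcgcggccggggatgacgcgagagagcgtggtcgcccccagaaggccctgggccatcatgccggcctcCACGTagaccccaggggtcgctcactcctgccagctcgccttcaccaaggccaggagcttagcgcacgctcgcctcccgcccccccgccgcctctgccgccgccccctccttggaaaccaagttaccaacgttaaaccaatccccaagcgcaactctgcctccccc

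A set of 7 motifs was searched on both strands of these 250 bases, with positions counted back from the gene's start and N standing for any base. The canonical NF-kB motif, the letters GGGAN directly followed by TTNCC, was found in 1.26% of the 35116 windows of this length, and a further NF-kB-type form, GGGTTTCCC, in 0.416%. The latter holds no N, so its share covers those exact letters and not NF-kB forms at large. VCAM1 held the first at -62 and the second at -77, and they did not overlap. VCAM1 also held the interferon regulatory factor motif, TTTC and TTTC with any pair of bases between them, which 3.02% of windows hold, at -15, and the TATA box TATAAA, which 10.7% of windows hold, at -29. The last overlaps a match on the other strand at -31, and a further one lies at -205. ICAM1 held the reverse complement of GGAATTTCC (an NF-kB form known from ICAM1, in 0.413% of windows) at -186 and TATAAA at -30. ICAM5 held neither an NF-kB form nor TATAAA, and carried at -166 the reverse complement of ACGTG, the core of a hypoxia response element, which is common (18.5% of windows). The AP-1 letters TGANTCA, found in 6.57% of windows, matched in none of the members' windows. The windows of ALCAM and MCAM held none of the 7 motifs, and of the 3 windows of ICAM3 1 held ACGTG. A match is a description of these letters and not a measured site of binding.

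The deposited values were normalized intensities, analysed here as log2 intensity, and the fits were made across all 34487 features with p-values adjusted over all of them. A feature passed at an adjusted p under 0.05. The medians of the 12 arrays lay between 9.17 and 9.29 on the log2 scale, and correlations between arrays of 1 group ranged from 0.942 to 0.973 over features. As a check of the oxygen labels, all 9 measured genes of a list of known low-oxygen genes passed as higher in HPM than in NPM (log2 fold change 0.81 to 3.12, against 4.65% of all features higher), and 8 of the 9 were higher in HPC than in NPC at an unadjusted p under 0.05, with 0 passing after adjustment, against 17.8% and 0.157% of all features. The epithelial keratin KRT8 stood above at least 98.6% of the features of every array, and the monocyte marker CD14 above no more than 24.8%. Other markers did not separate in this way. In the NPM arrays the epithelial markers EPCAM and CDH1 stood above no more than 22.6% and 31.2% of features. The macrophage marker ADGRE1 stood above 46.4% to 56.5% there. Its mean log2 intensity was 7.97 in NPC, 9.32 in NPM, 7.28 in HPC and 8.42 in HPM. Features named PTPRC and CSF1R, which define leukocytes and macrophages, were not among those analysed here. The sum of the 16 measured of 20 macrophage markers, on a log2 scale, ranged from 12.48 to 12.59 in NPC, 12.69 to 12.82 in NPM, 12.26 to 12.37 in HPC and 12.80 to 12.83 in HPM. The sums were higher in the co-cultured arrays, and CD68, a lysosomal protein that PANC-1 cells alone also showed (log2 intensity 11.85 ± 0.13 in NPC, SD, n = 3), was the brightest of these features at 12.16 ± 0.07 in NPM and 12.37 ± 0.04 in HPM. The mean log2 intensity over the same 16 features, which weights each alike, was lower in every NPM array (7.09 to 7.17) than in every NPC array (7.20 to 7.41), and under hypoxia the ranges overlapped (6.97 to 7.26 in HPC and 7.05 to 7.13 in HPM). Of the 16, 0 passed as higher in limma in either co-culture comparison. In the methods' t-test after adjustment 1 of the 16 passed in NPM vs NPC (LCP1, lower) and 1 in HPM vs HPC (CD68, higher), against 0.165% and 0.67% of all features. CD68 lay at 11.49 to 11.65 in the HPC arrays and at 12.32 to 12.39 in the HPM arrays. At an unadjusted p under 0.05, 2 were higher and 4 lower in NPM vs NPC and 2 higher and 0 lower in HPM vs HPC, against 13.7% and 20.5% of all features. The part of these markers in the results below was not tested. LCP1, an actin-bundling protein of leukocytes on the same list, was lower in NPM than in NPC by the test (log2 fold change -3.24 ± 0.16, SE, adjusted p = 0.00677).

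VCAM1 was the member that differed most between groups. Its log2 intensities were 5.21, 5.01 and 4.99 in the NPC arrays and 8.13, 7.79 and 7.76 in the NPM arrays. Under hypoxia they were 5.02, 6.69 and 5.00 in HPC and 6.16, 5.73 and 5.25 in HPM. The 3 NPM arrays stood apart above the other 9, and within HPC 1 array lay far above the other pair, above every HPM array. The group means were 5.07 ± 0.12 in NPC, 7.89 ± 0.20 in NPM, 5.57 ± 0.97 in HPC and 5.71 ± 0.46 in HPM (SD, n = 3 each), so that the order ran NPM, HPM, HPC, NPC, and the lower 3 groups followed each other by less than the spread of HPC. In NPC the feature was brighter than only 0.299% to 0.626% of all features of the array, and in NPM than 25.5% to 32.1%. Whether the NPC signal stood above background was not tested, and the lowest features of the arrays lay at 3.62 to 4.12. In bulk RNA, more expressing cells and more RNA per cell cannot be told apart.

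**Figure D1:**
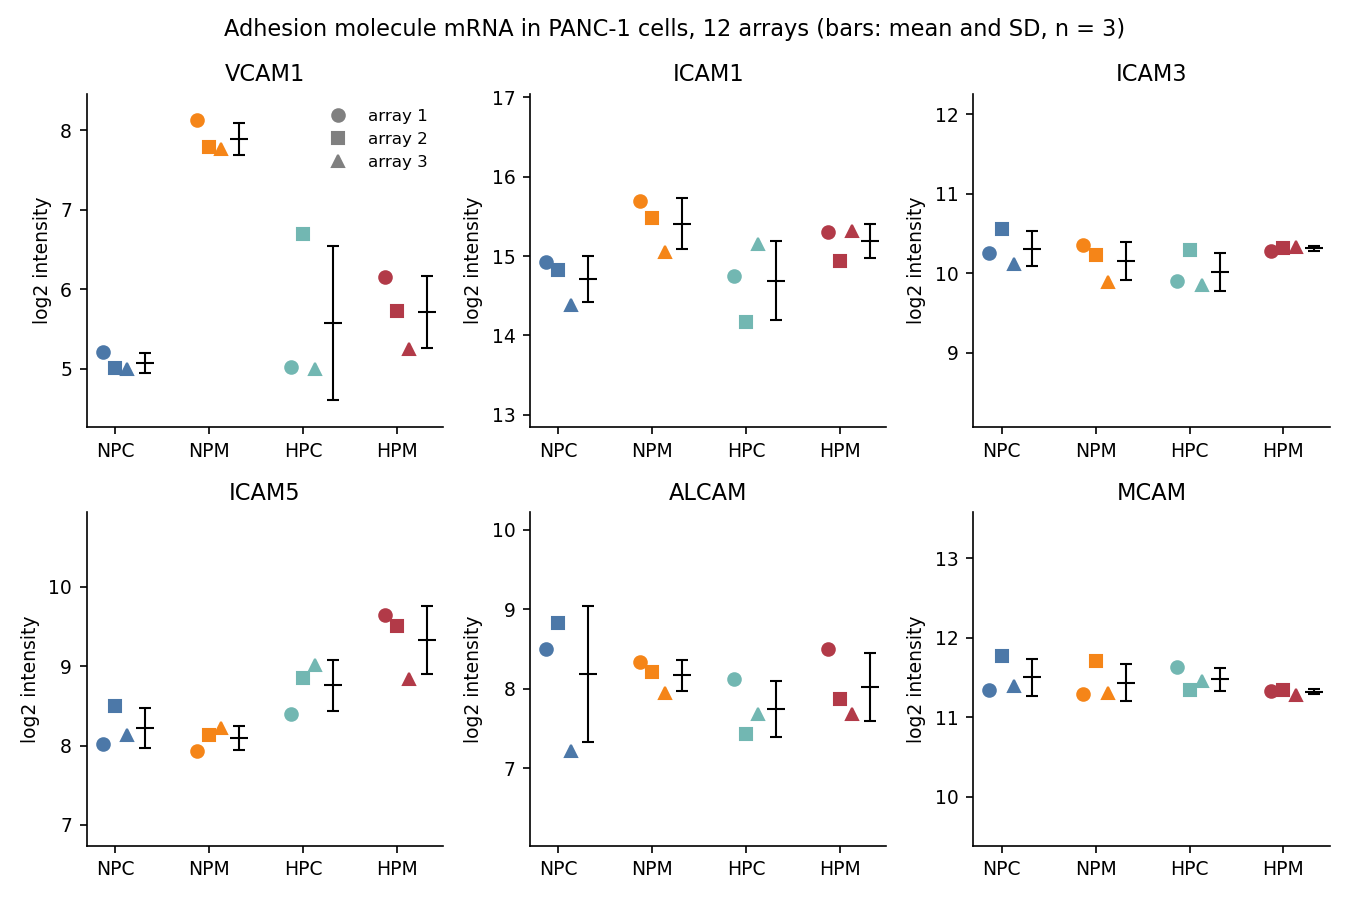
log2 intensity (y axis, each panel spans about the same number of log2 units) of the 6 measured members in the groups NPC, NPM, HPC and HPM (x axis), with 1 point per array, its shape giving the array number, and the mean and SD of 3 arrays as a bar beside them. The 3 NPM arrays of VCAM1 lie at 7.76 to 8.13, above the other 9 arrays, and array 2 of HPC lies at 6.69.

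Under normoxia, co-culture with TAMs was accompanied by a 7.07-fold higher VCAM1 intensity (NPM vs NPC, log2 fold change 2.82 ± 0.17, SE, 95% confidence interval 2.41 to 3.23, adjusted p = 0.0145, limma). VCAM1 ranked 3 among all features by p in this comparison. Since the study chose VCAM1 from this contrast on these arrays, the test is not independent evidence for it. Apart from the arrays, the study reported higher VCAM1 mRNA and protein by RT-qPCR and western blotting in co-cultured PANC-1 and Capan-2 cells. Those measurements were not examined here. The same-numbered arrays differed by 2.91, 2.78 and 2.77 on the log2 scale, so the size of the difference was alike in all 3 pairs. VCAM1 was the 1 of 6 measured members that passed, against 0.0232% of all features (8 of 34487), and 2 of 6 had an unadjusted p under 0.05, against 13.7% of features. It was also the 1 member passing in the methods' t-test after adjustment (adjusted p = 0.0457), against 0.165% of features. In the blocked fit, which pairs same-numbered arrays, VCAM1 did not pass (adjusted p = 0.0582, limma). Without any 1 of the 6 arrays the adjusted p lay between 0.0678 and 0.159, while the log2 fold change stayed between 2.70 and 2.89. In those fits with 1 array left out, at most 4 of all 34487 features passed. The fold rests on a dim control signal: with 32 added to every intensity before the log2 the log2 fold change was 2.04 (adjusted p = 0.0137). The macrophage markers were higher in the NPM than in the NPC arrays by their sum, in which CD68 is the brightest, and lower by their mean log2 intensity, and their part in the VCAM1 value was not tested. An exact permutation test of 3 against 3 arrays cannot go below p = 0.1, the value VCAM1 reached.

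Under hypoxia no such difference was found. The HPM vs HPC log2 fold change of VCAM1 was 0.14 ± 0.50 (SE, 95% confidence interval -1.06 to 1.33, adjusted p = 0.909, limma), an interval that lies below the 2.82 of normoxia. The same-numbered arrays differed by 1.13, -0.97 and 0.25, without a common direction. The negative pair holds the bright HPC array, and without HPC array 2 the log2 fold change was 0.70 (adjusted p = 0.360). The test of the difference itself, the co-culture change under hypoxia minus that under normoxia, gave -2.68 ± 0.57 (SE, 95% confidence interval -3.94 to -1.43, n = 12 arrays, limma). Its unadjusted p was 0.000666 and its adjusted p 0.0775, which did not pass. The study chose VCAM1 from the NPM vs NPC change, which is part of this difference, so this test is not independent evidence either. Without HPC array 2 this difference was -2.12 (adjusted p = 0.0696), the lowest adjusted p with 1 of the 12 arrays left out. The highest was 0.179, and none of these fits passed. After 32 was added to every intensity before the log2, which dampens dim features, the difference was -1.99 and passed (adjusted p = 0.0459). That was the 1 of 8 alternatives in which it passed, and their adjusted p reached 0.344.

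Between the co-cultured groups, VCAM1 was lower under hypoxia. All HPM arrays (5.25 to 6.16) lay below all NPM arrays (7.76 to 8.13), a 4.54-fold lower intensity (log2 fold change -2.18 ± 0.26, SE, 95% confidence interval -2.80 to -1.56, adjusted p = 0.00958, limma). Without NPM array 2 the adjusted p was 0.0504, and without each of the other 5 arrays in turn it stayed under the threshold. This comparison and NPM vs NPC share the NPM arrays, so their values for VCAM1 are not independent. In cells grown alone, hypoxia was accompanied by no such change (HPC vs NPC, log2 fold change 0.50 ± 0.46, SE, adjusted p = 0.615), and without HPC array 2 the value was -0.06.

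**Figure D2:**
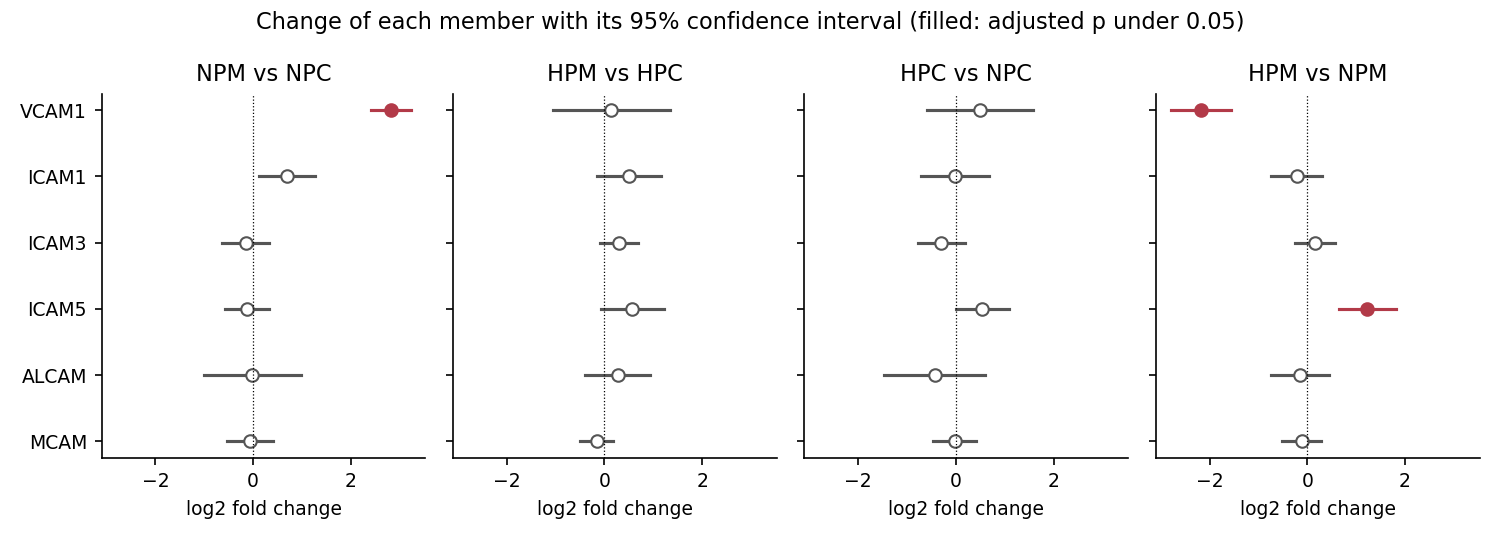
log2 fold change (x axis) of the 6 measured members (rows) in the 4 comparisons of groups, with 95% confidence intervals from the fits of 6 arrays as lines. Filled red points passed at an adjusted p under 0.05: VCAM1 in NPM vs NPC (2.82) and, in HPM vs NPM, VCAM1 (-2.18) and ICAM5 (1.23).

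ICAM1, the main LFA-1 ligand, was among the brightest features in every array. Its log2 intensities were 14.92, 14.83 and 14.38 in NPC, 15.69, 15.47 and 15.05 in NPM, 14.75, 14.16 and 15.16 in HPC and 15.31, 14.94 and 15.31 in HPM. On each array at least 98.4% of features were dimmer, so PANC-1 cells grown alone already carried a bright ICAM1 signal. The 3 NPM arrays lay above the 3 NPC arrays, with means of 15.41 ± 0.32 and 14.71 ± 0.29 (SD, n = 3 each). The log2 fold change was 0.69 ± 0.24 (SE, 1.62-fold), with an unadjusted p of 0.0233 and an adjusted p of 0.279 (limma), so ICAM1 did not pass. The brightest features of the arrays lay at 15.79 to 15.99, close above the NPM values of ICAM1, and whether the top of the scale compressed its fold was not tested. Groups that did not overlap, with NPM higher, were found for 2 of the 6 members and for 8.84% of all features. The same-numbered differences were 0.76, 0.64 and 0.68 under normoxia and 0.56, 0.78 and 0.16 under hypoxia, positive in all 6 pairs. Under hypoxia the log2 fold change was 0.50 ± 0.27 (SE, adjusted p = 0.372) with groups that overlapped, and the co-culture changes at both oxygen levels differed by -0.20 ± 0.38 (SE, 95% confidence interval -1.03 to 0.64, adjusted p = 0.921). Hypoxia itself gave -0.02 ± 0.29 in cells alone and -0.22 ± 0.22 in co-culture (SE), neither of which passed. The order of the means was NPM, HPM (15.19 ± 0.21), NPC and HPC (14.69 ± 0.50), and among the neighbours in it that were tested none differed beyond their spread.

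ICAM5 (telencephalin), best known from neurons of the forebrain, was the member that was higher under hypoxia in co-cultured cells. Its log2 intensities were 8.02, 8.50 and 8.13 in NPC, 7.93, 8.13 and 8.22 in NPM, 8.40, 8.85 and 9.02 in HPC and 9.64, 9.50 and 8.83 in HPM. Every HPM array lay above every NPM array, as for 16.3% of all features, while VCAM1 was among the 18.2% with every HPM array below. In HPM vs NPM ICAM5 rose 2.35-fold (log2 fold change 1.23 ± 0.24, SE, 95% confidence interval 0.65 to 1.81, adjusted p = 0.0290, limma). With VCAM1 it made 2 of 6 measured members passing, 1 higher and 1 lower, against 10.4% of all features (4.65% higher and 5.79% lower). The call did not hold in 5 of the 6 fits that left out 1 array (adjusted p from 0.0597 to 0.0957), and held without HPM array 3 (adjusted p = 0.0341). Nor did ICAM5 pass in the methods' t-test after adjustment (adjusted p = 0.0793). In cells alone the same comparison gave 0.54 ± 0.23 (SE, HPC vs NPC, unadjusted p = 0.0499, adjusted p = 0.280), and the HPC and NPC arrays overlapped. Co-culture gave -0.12 ± 0.19 under normoxia and 0.57 ± 0.27 under hypoxia (SE, adjusted p = 0.824 and 0.300), and these changes differed by 0.69 ± 0.34 (SE, adjusted p = 0.484).

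ICAM3, which resting leukocytes carry in abundance, varied little. The log2 intensities were 10.26, 10.55 and 10.12 in NPC, 10.36, 10.22 and 9.89 in NPM, 9.90, 10.29 and 9.85 in HPC and 10.28, 10.32 and 10.33 in HPM. The groups overlapped in all 4 comparisons, with log2 fold changes of -0.15 ± 0.20 and 0.30 ± 0.16 for co-culture under normoxia and under hypoxia, and of -0.30 ± 0.20 and 0.16 ± 0.17 for hypoxia in cells alone and co-cultured (SE). The 95% confidence intervals of these values ran from -0.77 to 0.70 at their widest, so changes of 2-fold lay outside all 4 of them.

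ALCAM spread widely among the NPC arrays. In the arrays its log2 intensity was 8.50, 8.83 and 7.21 in NPC, 8.34, 8.21 and 7.95 in NPM, 8.12, 7.43 and 7.68 in HPC and 8.50, 7.86 and 7.68 in HPM. NPC array 3 was the lowest of the 12, and the SD of the NPC group was 0.85. The log2 fold changes ran from -0.44 ± 0.43 (HPC vs NPC) to 0.27 ± 0.28 (HPM vs HPC, SE), none passed, and the interval of NPM vs NPC, -1.01 to 0.98, reached from a 2-fold lower to a 2-fold higher value.

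MCAM was the steadiest member. MCAM log2 intensities were 11.34, 11.77 and 11.39 in NPC, 11.29, 11.70 and 11.31 in NPM, 11.63, 11.34 and 11.45 in HPC and 11.34, 11.34 and 11.28 in HPM. The 12 arrays spanned 0.49 log2 units, against 3.13 for VCAM1 and 1.71 for ICAM5, and 20.8% of all features had a smaller spread within groups. The HPM arrays lay below the HPC arrays by a small step (log2 fold change -0.16 ± 0.14, SE, adjusted p = 0.590), as did 16.4% of all features. The log2 fold changes in the other comparisons were -0.07 (NPM vs NPC), -0.02 (HPC vs NPC) and -0.12 (HPM vs NPM).

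In HPM vs HPC 0 of the 6 measured members passed in limma, 0 had an unadjusted p under 0.05 and 0 passed in the methods' t-test after adjustment, against 1.02%, 20.5% and 0.67% of all features in these 3 counts. In HPC vs NPC 0 of 6 passed in limma and 0 in the methods' t-test, and 1 of 6, ICAM5, had an unadjusted p under 0.05, against 0.157%, 0.0406% and 17.8% of all features in these 3 counts. For the difference of the co-culture changes 0 of 6 passed and 1 of 6, VCAM1, had an unadjusted p under 0.05 (0.452% and 11.4% of all features). For co-culture the median log2 fold change over the 6 was -0.04 under normoxia and 0.29 under hypoxia, beside -0.01 and -0.02 over all features. For hypoxia it was -0.02 in cells alone and -0.13 in co-cultured cells, beside 0.00 and 0.00 over all features. In HPM vs NPM 2 of 6 had an unadjusted p under 0.05 (27.9% of all features) and 1 of 6, VCAM1, passed in the methods' t-test after adjustment (6.64%). The median was near 0 in NPM vs NPC although VCAM1 changed 7.07-fold, so the other members were spread on both sides of 0.

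Other molecules of the adhesion pathway were read from 5 lists: receptors on other cells, other immunoglobulin superfamily adhesion molecules, selectins and their ligands, cytoplasmic partners with sheddases, and transcription factors and inhibitors known at the VCAM1 or ICAM1 promoters. Together 77 of their genes were measured. In NPM vs NPC 0 of the 77 passed in limma, while 16 had an unadjusted p under 0.05, against 0.0232% and 13.7% of all features, and 0 passed in the methods' t-test after adjustment, against 0.165%. In HPM vs HPC 3 of the 77 passed, all higher, and 20 had an unadjusted p under 0.05 (1.02% and 20.5% of all features). In HPC vs NPC these counts were 0 and 18 (0.157% and 17.8%), in HPM vs NPM 8 and 25 (10.4% and 27.9%) and for the difference of co-culture changes 1 and 14 (0.452% and 11.4%). The 8 in HPM vs NPM were 4 higher and 4 lower.

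Among the 21 measured of 30 other immunoglobulin superfamily molecules, ICAM4 came closest to VCAM1. ICAM4, the Landsteiner-Wiener blood group protein of red cells and a ligand of leukocyte integrins, lies between ICAM1 and ICAM5 on chromosome 19, where ICAM3 follows them. Its log2 intensities were 8.69, 8.84 and 8.59 in NPC, 10.18, 10.61 and 9.85 in NPM, 8.92, 9.53 and 9.19 in HPC and 9.24, 9.49 and 8.76 in HPM. As for VCAM1, all NPM arrays lay above the other 9. In ICAM4 the NPM vs NPC log2 fold change was 1.51 ± 0.22 (SE, 2.84-fold, adjusted p = 0.0912), that of HPM vs HPC -0.05 ± 0.25 (SE, adjusted p = 0.941), and the difference of both -1.55 ± 0.35 (SE, adjusted p = 0.0927, limma), so none passed. Of these 4 chromosome 19 neighbours, ICAM4 had its highest mean in NPM with HPM close to HPC, ICAM1 was bright in every group, ICAM5 had its highest mean in HPM and ICAM3 stayed within 0.71 log2 units over all arrays. The study's methods, which name another array design than the labels, describe labelling of double-stranded cDNA. By that protocol signal from transcripts of opposite strands cannot be told apart.

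L1CAM, a neural adhesion molecule also expressed by carcinomas, had co-cultured arrays above those of cells alone at both oxygen levels, without overlap: the log2 fold change was 1.06 ± 0.17 in NPM vs NPC (adjusted p = 0.102) and 0.82 ± 0.13 in HPM vs HPC (SE, adjusted p = 0.0509), neither passing, although the latter passed in the methods' t-test (adjusted p = 0.0455). In HPM vs NPM, where 10.4% of all features passed, 3 of the 21 did: CD58, the CD2 ligand, fell by 1.53 on the log2 scale (adjusted p = 0.00915), CEACAM1 fell by 1.27 (adjusted p = 0.0147) and F11R, a tight junction molecule, rose by 0.97 (adjusted p = 0.0345). CD58 gave -1.13 ± 0.19 in HPM vs HPC (SE, adjusted p = 0.0530). The list's median log2 fold change was 0.23 in NPM vs NPC and 0.31 in HPM vs HPC.

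The receptors of these molecules, 10 of 14 measured, held no gene that passed in any comparison (0 in limma and 0 in the methods' t-test), with 1 of 10 at an unadjusted p under 0.05 in both co-culture comparisons and in HPC vs NPC (13.7%, 20.5% and 17.8% of all features), and 3 of 10 in HPM vs NPM (27.9%) and in the difference of co-culture changes (11.4%). The integrin chain ITGB1, the partner of α4 in the VCAM1 receptor, stood at 13.73 ± 0.18 in NPC and 13.52 ± 0.24 in NPM, and the leukocyte chain ITGB2 at 7.48 ± 0.34 and 6.40 ± 0.58 (SD, n = 3 each). ITGA4, the α4 chain, had no named feature. Of the selectins and their ligands, 6 of 8 measured, CD44 alone passed, lower in HPM than in NPM (log2 fold change -0.82 ± 0.15, SE, adjusted p = 0.0265). In that comparison 10.4% of all features passed, 5.79% as lower. Of the cytoplasmic partners and sheddases, 15 of 16 measured, none passed in limma, and MSN passed in the methods' t-test of HPM vs HPC (adjusted p = 0.0455), 1 of 15 against 0.67% of all features. Moesin (MSN), which links the tails of VCAM1 and ICAM1 to actin, had log2 fold changes of 0.73 ± 0.16 in NPM vs NPC and 0.70 ± 0.13 in HPM vs HPC (SE, adjusted p = 0.152 and 0.0592).

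The transcription factors and inhibitors, 25 of 26 measured, were the list in which genes passed in HPM vs HPC (3 of 25, all higher, against 1.02% of all features). IRF1, the interferon regulatory factor that binds the VCAM1 promoter, had log2 intensities of 12.16, 12.50 and 12.29 in NPC, 12.83, 12.76 and 12.44 in NPM, 12.12, 11.94 and 11.97 in HPC and 13.60, 13.83 and 13.58 in HPM. All HPM arrays lay above the other 9. IRF1 rose in HPM vs HPC (log2 fold change 1.65 ± 0.15, SE, adjusted p = 0.0346), and the NPM vs NPC value was 0.36 ± 0.18 (SE, adjusted p = 0.446). The difference of these changes, 1.30 ± 0.22 (SE, adjusted p = 0.0342, limma), passed, with a sign opposite to that of VCAM1.

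NFKBIA, the inhibitor IκBα and itself an NF-kB target, rose by 1.23 ± 0.19 in HPM vs HPC (SE, adjusted p = 0.0494). With arrays centred on their medians its adjusted p was 0.0501. In the blocked fit IRF1 and NFKBIA each had an adjusted p of 0.0627 in HPM vs HPC, and neither passed without any 1 array (adjusted p from 0.107 to 0.202). In NPM vs NPC the value of NFKBIA was 0.28 ± 0.17 (SE, adjusted p = 0.542), and the NF-kB subunit genes NFKB1 and NFKB2 gave 0.63 ± 0.17 and 0.75 ± 0.24 (SE, adjusted p = 0.204 and 0.253). In HPM vs NPM ELF3, an epithelial ETS factor, rose by 1.24, KLF2, named here after its value was seen, by 1.18, and IRF1 by 0.99 on the log2 scale (adjusted p = 0.00972, 0.0440 and 0.0215, limma). Of the 25 measured, 3 passed as higher and 1 as lower there, against 4.65% and 5.79% of all features. The part of these genes in the VCAM1 values was not tested. These are mRNA levels, and the activity of the factors was not measured.

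**Figure D3:**
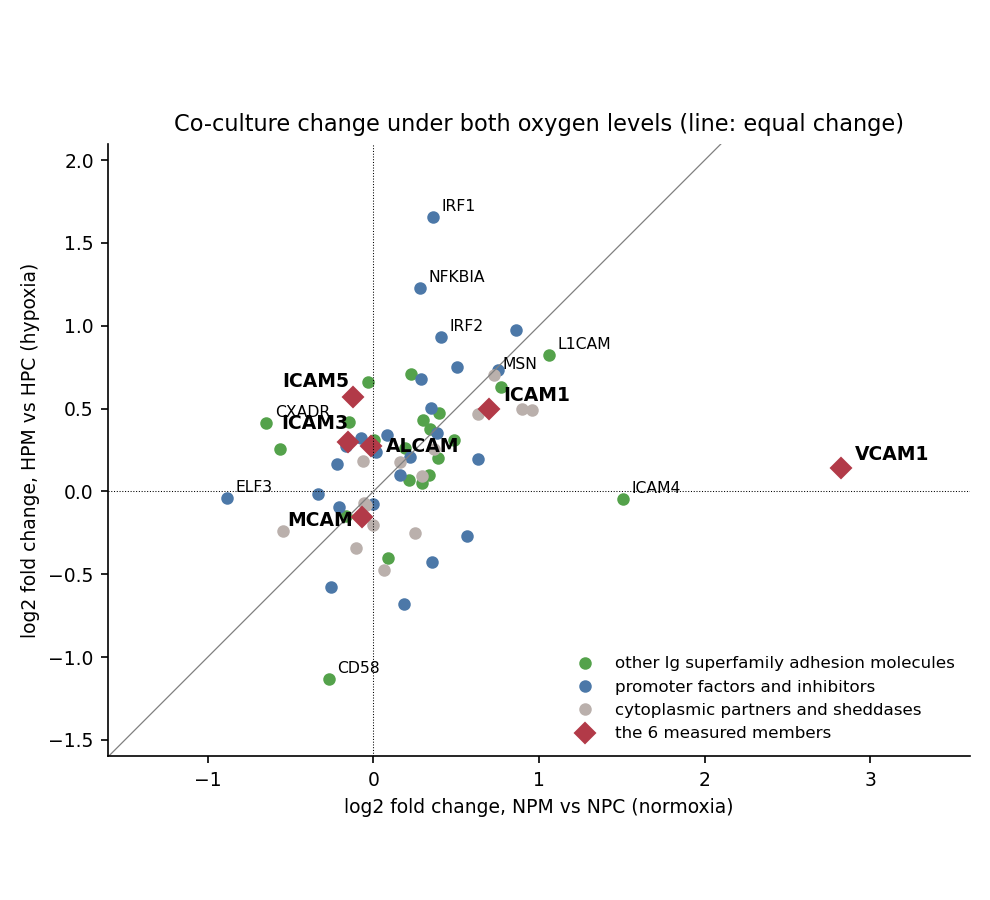
Co-culture log2 fold change under normoxia (x axis, NPM vs NPC) against that under hypoxia (y axis, HPM vs HPC) for the 6 measured members (red diamonds) and for genes of 3 related lists (circles), with the grey line marking equal change. VCAM1 (2.82 and 0.14) and ICAM4 (1.51 and -0.05) lie far to the right near 0 on the y axis, and IRF1 (0.36 and 1.65) and NFKBIA (0.28 and 1.23) lie high above the line.

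The features whose values over the 12 arrays were most like those of each member were found by Pearson correlation among named features. The arrays share 4 groups and a normalization, so the correlations describe likeness and no test was made. The group values of these features below follow in part from their choice and are given as a description. For VCAM1 they were CD74, the chaperone of MHC class II molecules, by both of its features (r = 0.919 and 0.905), ICAM4 (r = 0.915), the complement component C3 (r = 0.909), RNF39 (r = 0.893) and the RNA helicase MOV10 (r = 0.891). All 6 features had their highest mean in NPM. The CD74 feature NM_001025158 stood at 9.81 ± 0.11 in NPC, 11.78 ± 0.02 in NPM, 10.25 ± 0.29 in HPC and 10.92 ± 0.23 in HPM (SD, n = 3 each). Its log2 fold change was 1.98 ± 0.14 in NPM vs NPC and 0.66 ± 0.21 in HPM vs HPC (SE). The other CD74 feature, NM_004355, gave 2.34 ± 0.28 and 0.52 ± 0.30, and C3 gave 0.91 ± 0.16 and -0.06 ± 0.15 (SE).

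**Figure D4:**
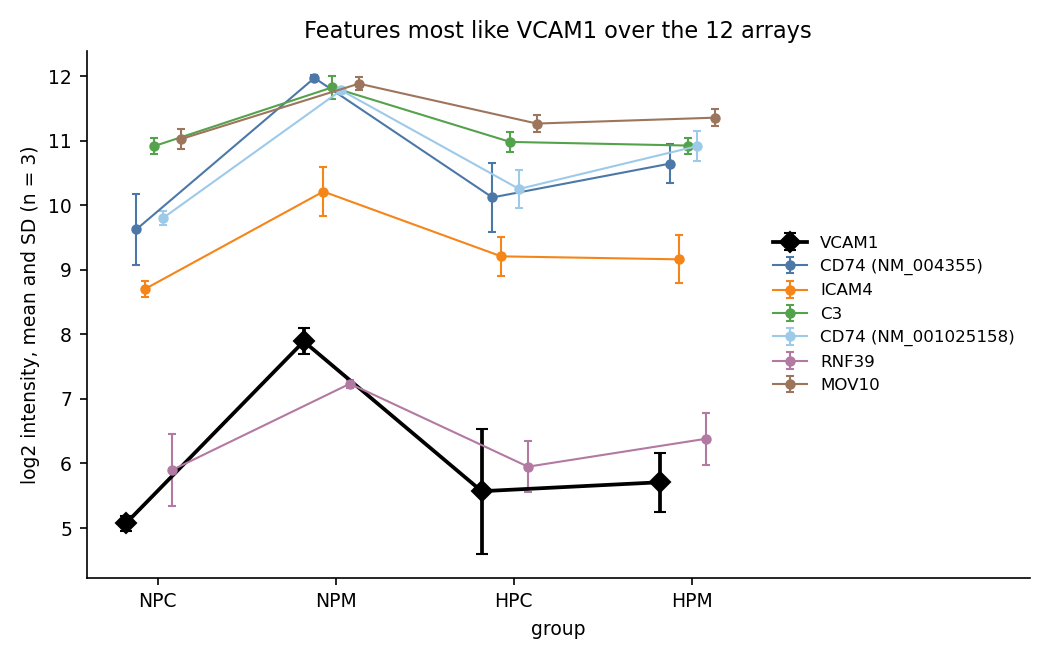
Mean log2 intensity (y axis) with SD over 3 arrays of VCAM1 (black diamonds) and of the 6 named features most correlated with it, in the groups NPC, NPM, HPC and HPM (x axis, points shifted sideways for sight). Each feature is highest in NPM, where VCAM1 reaches 7.89 and ICAM4 10.21. The vertical distance between features is not a difference in transcript number.

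For ICAM1 the most alike were MAN2B1, a lysosomal mannosidase (r = 0.923), TMEM106A (r = 0.878) and the cytokine subunit EBI3 (r = 0.869). The co-culture log2 fold change of MAN2B1 was 0.61 in NPM vs NPC and 0.63 in HPM vs HPC. For ICAM5 they were ZNF277 (r = 0.951), the adhesion receptor ADGRA2 (r = 0.926) and the channel HCN2 (r = 0.923), with HPM vs NPM log2 fold changes of 0.75, 1.42 and 0.88. For ALCAM they were DGKH (r = 0.918), SPTSSA (r = 0.896) and GABPA (r = 0.893), for ICAM3 CACUL1 (r = 0.870), BMPR1B (r = 0.818) and CXorf38 (r = 0.800), and for MCAM CAPZA2 (r = 0.846), C22orf39 (r = 0.838) and ST8SIA5 (r = 0.806).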

How the data were processed

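RNA of PANC-1 cells was hybridised to 12 one-color arrays, 3 for each of 4 groups. The authors deposited 1 table of normalized intensity values, made by quantile normalization and RMA per the labels and the study's methods. The labels and the methods name different array designs, so the probes' design stays unsettled here. The labels number the 3 arrays of a group as replicates and do not say whether they came from separate cultures, so p-values measure only the spread between these arrays, which may be technical, and their number limits the precision.

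Intensities were log2-transformed with no filter on low values. Of 34487 features, 14133 were named by the probe table and 542 by RefSeq accession. limma 3.58.1 in R 4.3.3 (lmFit and eBayes) was fitted to the 6 arrays of each comparison and, for the difference of co-culture changes, to all 12, with Benjamini-Hochberg adjustment over all features. The fits were tested on simulated data. Members and lists were chosen with earlier results of these data known. From each related list the text names genes among the 4 with the smallest p in each co-culture comparison, taking the feature of the highest mean, and for likeness the 6 features with the highest correlation for VCAM1 and 3 for the others, among named features spanning at least 1 log2 unit. KLF2 was added after its values were seen. A gene of these lists is not reported here.

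Same-numbered arrays deviated together in both co-culture comparisons (correlation of deviations from the group mean 0.281 to 0.520 under normoxia and 0.267 to 0.543 under hypoxia), so the number was taken as a pairing there, from the data and not from a stated batch. The reported fits did not include this pairing, and the blocked fit was run as an alternative. In it VCAM1 in NPM vs NPC and IRF1 and NFKBIA in HPM vs HPC did not pass (adjusted p = 0.0582, 0.0627 and 0.0627, limma). Alternatives in normalization, scale, filter, block and arrays left out were run, and the methods' t-test. Promoter windows and gene order come from RefSeq (GRCh38.p14), for the 6 measured members. Figures were drawn with matplotlib. The table held no columns of the authors' own comparisons.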

Additional observations from a re-analysis of the deposited data

Results flagged for a closer look

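IRF1 changed with co-culture by different amounts at the 2 oxygen levels: the HPM vs HPC change exceeded the NPM vs NPC change by 1.30 ± 0.22 on the log2 scale (SE, adjusted p = 0.0342, limma over 12 arrays), against 0.452% of all features with such a difference.

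For CXADR, the coxsackievirus and adenovirus receptor of epithelial junctions, all 3 same-numbered differences were negative under normoxia and positive under hypoxia. The log2 fold change was -0.65 ± 0.24 in NPM vs NPC and 0.41 ± 0.17 in HPM vs HPC (SE), a difference of 1.06. Opposite signs over pairs were not tested as such, and the fit of the difference did not pass (adjusted p = 0.181).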

How the results depend on the processing

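Of the results for single members, 531 kept direction and side of the threshold under an alternative, 20 lost the threshold, 1 gained it and 25 changed sign, each of the last on a value that had not passed. In NPM vs NPC the count of members passing went from 1 to 0 with the replicate block, on linear intensities, without the arrays numbered 3, and without features under the 25th percentile, a filter that removes VCAM1 itself. Leaving out 1 of the 6 arrays of the comparison gave 0 in every case. In HPM vs NPM the count went from 2 to 1 with that filter, with the replicate block, with the adjusted methods' t-test and on linear intensities, to 0 without the arrays numbered 3, and to between 0 and 2 when 1 array was left out. The difference of co-culture changes went from 0 to 1 with 32 added to each intensity.

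Values of log2 fold change that turned sign were small. ALCAM in NPM vs NPC was 0.00707 after repeated quantile normalization and 0.0157 with arrays centred on their medians, ICAM1 in HPC vs NPC was 0.0165 and VCAM1 in HPM vs HPC -0.0496 on linear intensities, and MCAM in HPC vs NPC was 0.00566 after repeated quantile normalization. With 1 array left out, ALCAM ranged from -0.50 to 0.31 in NPM vs NPC, from -0.39 to 0.0169 in HPM vs NPM and from -0.0358 to 0.77 in the difference of changes. ICAM1 ranged from -0.25 to 0.24 in HPC vs NPC and from -0.46 to 0.0345 in the difference. ICAM5 ranged from -0.22 to 0.0202 in NPM vs NPC. MCAM ranged from -0.20 to 0.0672 in NPM vs NPC, from -0.10 to 0.11 in HPC vs NPC, from -0.19 to 0.0198 in HPM vs NPM and from -0.22 to 0.0442 in the difference. VCAM1 ranged from -0.0609 to 0.79 in HPC vs NPC and from -0.15 to 0.70 in HPM vs HPC. The cause was not tested.

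Across oxygen levels the same-numbered arrays deviated together less evenly. Their correlations ran from 0.025 to 0.376 in HPC vs NPC and from 0.010 to 0.384 in HPM vs NPM. All were positive, but the lowest were near 0, so the number was not taken as a pairing there. The block there lowered the features passing from 54 to 0 and from 3602 to 1854, and in the co-culture comparisons from 8 to 1 and from 353 to 0. ICAM5 in HPM vs NPM had an adjusted p of 0.0644 with the block and VCAM1 0.0393. VCAM1 in NPM vs NPC was 2.04 with 32 added to each intensity. A block over all 12 arrays at once changed no member's call. Over all features the count passing depended strongly on the fit. It ranged from 0 to 1147 in NPM vs NPC (8 as reported), from 0 to 2892 in HPM vs HPC (353), from 0 to 2308 in HPC vs NPC (54) and from 0 to 7024 in HPM vs NPM (3602), each highest with the block over 12 arrays, and from 0 to 463 for the difference of changes (156), highest on linear intensities. With all 12 arrays in 1 fit the first 4 counts were 872, 1885, 1452 and 5573, and L1CAM and MSN passed in both co-culture comparisons, ICAM4 in NPM vs NPC and CD58 in HPM vs HPC, and with the filter on dim features 335 passed in NPM vs NPC. No feature passed in HPM vs HPC or HPC vs NPC when any 1 array was left out, and at most 4 passed in NPM vs NPC. Dim features such as VCAM1 in NPC lie near the lowest values of the arrays, which limits its fold.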
